A study of Rattus norvegicus with 8 samples.

Results

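The genes described here are those of complement and of the acute phase response that the table of this rat disc cell study lists under the names C3, C1s, C1r, Cfb, Serping1, Cd55, Cd59, Lcn2 and Ptx3. They were chosen by gene symbol, and 8 of the 9 are among the 13613 listed genes; Cfb is not analysed here. RNA was sequenced from primary nucleus pulposus cells of the rat, which come from the soft core of the intervertebral disc and had been grown out of explants and expanded. The 4 control libraries came from cells transduced with the PLKO1 control vector, and the 4 knockdown libraries from cells transduced with a short hairpin RNA against TonEBP, a transcription factor that responds to salt stress and is encoded by Nfat5. Both groups had 110 mM NaCl added to the medium for 8 h, so the comparison is between hypertonic cultures with more and with less TonEBP, and each group has a single library from each of Sets 1 to 4. The labels do not say how many animals a Set holds, how many hairpins were used or whether the Sets are separate cultures, so p-values measure the spread between these libraries.

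Complement is a cascade of blood and tissue proteins that tags particles and cells for removal. In its classical branch the proteases C1r and C1s cut the components C4 and C2, C3 is the protein on which all branches meet, and Serping1 (the C1 inhibitor), Cd55 (decay accelerating factor) and Cd59 (which blocks the terminal pore) hold the cascade back. Lcn2, a lipocalin that withholds iron carriers from bacteria, and Ptx3, a long pentraxin that binds C1q, are released by many cell types under inflammatory cytokines, and their genes are known targets of NF-kB and, for Lcn2 and C3, of C/EBP factors.

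The promoter windows of C3, Lcn2 and Ptx3 are printed because these genes are known targets of NF-kB or C/EBP, and TonEBP is the factor that was reduced. RefSeq promoter sequences (build GRCr8, 250 bases before to 50 after the annotated start) matched 5 of the 8 members by symbol: C3, C1r, Cd55, Lcn2 and Ptx3. Capitals mark matches, on either strand, to the C/EBP motif TTGCNNAA, the STAT motif TTCNNNGAA, the kappaB consensus and the TonE consensus of TonEBP. The windows lie at chr9:2201290-2201589 on the minus strand for C3, at chr3:36081731-36082030 on the minus strand for Lcn2 and at chr2:152797313-152797612 on the plus strand for Ptx3.
C3: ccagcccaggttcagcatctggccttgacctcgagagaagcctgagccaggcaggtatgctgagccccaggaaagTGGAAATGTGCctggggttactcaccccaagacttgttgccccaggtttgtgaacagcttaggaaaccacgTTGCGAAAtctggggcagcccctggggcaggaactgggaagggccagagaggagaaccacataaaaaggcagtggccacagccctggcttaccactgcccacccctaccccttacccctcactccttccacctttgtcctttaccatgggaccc
Lcn2: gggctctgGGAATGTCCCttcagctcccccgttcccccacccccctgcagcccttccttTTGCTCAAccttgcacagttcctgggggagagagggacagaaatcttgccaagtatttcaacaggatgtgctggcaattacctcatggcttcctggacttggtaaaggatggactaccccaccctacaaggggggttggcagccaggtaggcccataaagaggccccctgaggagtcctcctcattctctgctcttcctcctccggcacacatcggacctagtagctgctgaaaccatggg
Ptx3: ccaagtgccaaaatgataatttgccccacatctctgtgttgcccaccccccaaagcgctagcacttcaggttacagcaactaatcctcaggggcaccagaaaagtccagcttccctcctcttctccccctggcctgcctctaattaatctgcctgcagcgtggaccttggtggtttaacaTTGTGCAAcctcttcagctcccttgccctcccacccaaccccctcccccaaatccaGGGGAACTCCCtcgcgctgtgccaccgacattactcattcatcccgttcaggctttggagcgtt

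The C3 window holds a TonE match (bases -175 to -165 from the start) and a C/EBP match (-104 to -97). The Lcn2 window holds a kappaB match (-242 to -233) and a C/EBP match (-191 to -184). In the Ptx3 window 3 overlapping kappaB matches cover bases -14 to -4, and a C/EBP match lies at -70 to -63. The window of C1r holds a C/EBP match and that of Cd55 none of the 4 motifs. Of 33469 rat promoter windows of this length, 10.6% hold a C/EBP match, 7.51% a kappaB match, 5.98% a TonE match and 8.87% a STAT match. A match is a run of letters and not a measured binding site.

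Depth was between 9567488 and 15782202 reads on the listed genes per library, and the values are normalized counts, which are reads divided by a factor for the library. Nfat5 itself measured 1682, 2332, 1677 and 942 normalized counts in control libraries 1 to 4 and 1094, 872, 459 and 414 in knockdown libraries 1 to 4. As a share of control, Nfat5 stood at 65.0%, 37.4%, 27.4% and 43.9% in Sets 1 to 4, so that the target was lowest relative to its control in Set 3 and highest in Set 1. The groups overlapped, and the log2 fold change of -1.27 had an adjusted p of 0.378 in limma and 9.66e-06 in DESeq2 with the Set as a block. In sum the 9 fibroblast markers ran from 185601 to 269458 normalized counts without the hairpin and from 177758 to 415276 with it. Of these 9 markers 5 lay above 0 and 4 below in limma. The authors' deposited table calls Col1a1 (log2 1.24) and Col1a2 (log2 0.88) higher among them and 0 lower. Over all genes it calls 4.09% higher and 5.22% lower. Col1a1 and Col1a2 were higher in all 4 Sets. The 11 listed of 16 nucleus pulposus markers summed to 11747, 6055, 1771 and 1033 in control and 16607, 6446, 1385 and 1277 in knockdown libraries 1 to 4, so they differed far more between Sets than between groups. Car3, which ran from 23.2 to 15939, made up most of the sum in Sets 1 and 2, Col2a1 stayed between 0 and 8.76 and Sox9 between 0 and 29.2. Of the 11, 8 have an adjusted p in the authors' deposited table, and 0 of those 8 are called. The 6 listed of 14 macrophage and leukocyte markers summed to between 90.4 and 454 in control and 27.1 and 278 in knockdown libraries. Of these Cd68 was lower in all 4 Sets and is called lower in the authors' deposited table (log2 -0.94), Csf1r was lower in 3 Sets, and the others were at low counts in both groups, with Emr1 at 0 in all 4 knockdown libraries and at 0.876, 0, 1.23 and 10.6 in control. The 2 listed of 8 neutrophil markers summed to between 17.3 and 196 in control and 8.70 and 25.7 in knockdown libraries. Their part in the results below was not tested.

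C1s, the protease that cuts C4 and C2, was the member with the largest difference, at 25.9% of control on average and lower in all 4 Sets. C1r, the protease that activates it, was at 72.3% and level in 2 of the Sets. Lcn2 was at 51.9% and C3 at 79.1% of control. On the log2 scale the difference was largest in Set 3 for both, and for Lcn2 next largest in Set 4. Cd59 was higher in all 4 Sets, at 147% of control, while Cd55 was lower in 3. With the Set as a block DESeq2 gave Cd59 a lower adjusted p (0.00840) than C1s (0.0296). In limma with group as the only term no member passed an adjusted p of 0.05 over all 12383 genes tested, against 0.00808% of those genes called lower and 0.0% called higher. At an unadjusted p under 0.05 the same test counted 2 members, C1s and Cd55, against 9.5% of genes tested.

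**Figure D1:**
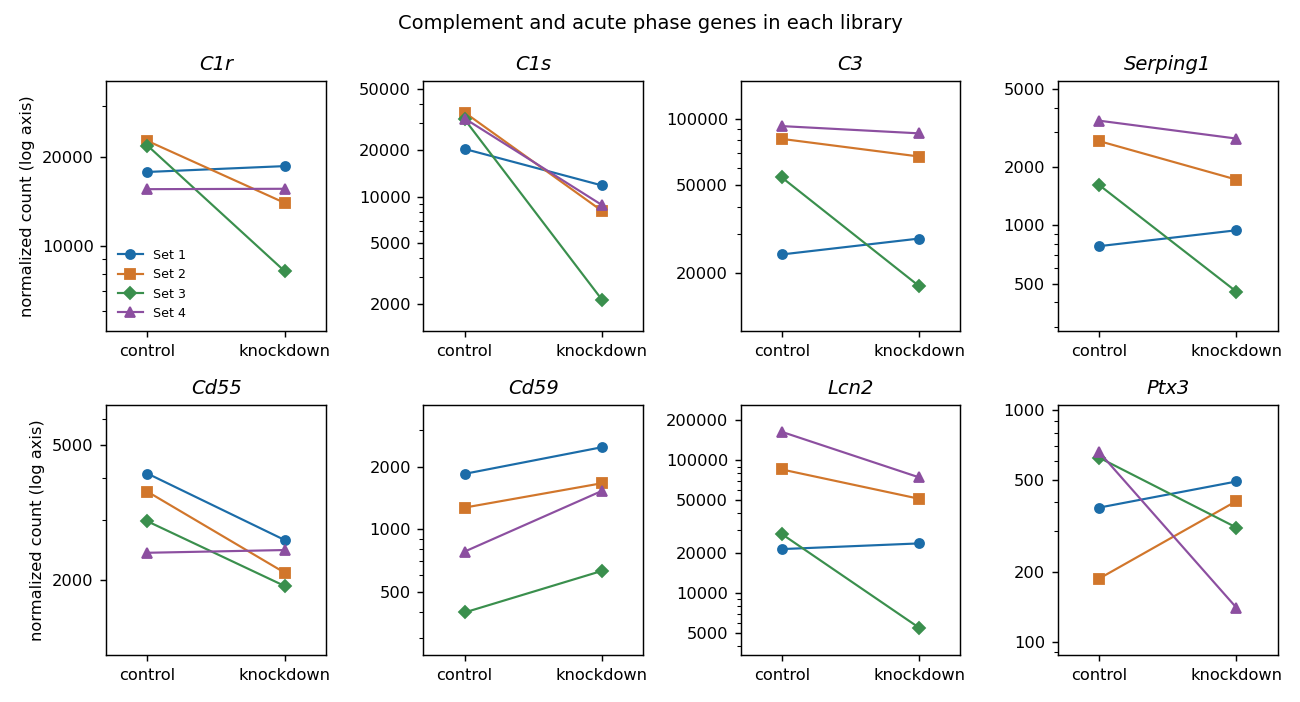
Normalized counts (log axis, with a scale for each gene) of the 8 members in the 4 control and 4 knockdown libraries; each line joins the libraries of a Set, and there are no error bars because every library is shown. C1s is lower in the knockdown of every Set and its groups do not overlap (lowest control 20365, highest knockdown 11815), Cd59 is higher in the knockdown of every Set, and Ptx3 is higher in Sets 1 and 2 and lower in Sets 3 and 4.

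C1s (ENSRNOG00000011971) measured 20365, 35075, 31614 and 32071 normalized counts in control libraries 1 to 4 and 11815, 8079, 2147 and 8816 in knockdown libraries 1 to 4. Every knockdown library was thus below every control, which holds for 3.44% of genes tested in this direction. Control averaged 29782 ± 6462 and knockdown 7714 ± 4048 (SD, n = 4), and on the log2(value + 1) scale of the test C1s was 4.47-fold lower, log2 fold change -2.16 (SE, the standard error, 0.496). In bulk RNA, fewer cells of a type and less RNA per cell cannot be told apart. For C1s limma gave an adjusted p of 0.344; blocking on the Set brought it to 0.0810, and to 0.0876 in edgeR. DESeq2 called it lower both when the Set was ignored (adjusted p 0.00456) and when it was blocked (0.0296). It was the single member among the 0.833% of genes that DESeq2 called lower without the Set, where 0.597% were called higher. The authors' deposited table lists C1s at log2 -0.90, adjusted p 0.0563, nearer to 0 than the -2.14 of DESeq2 with the Set as a block. Deposited and computed fold changes are therefore not read as one scale.

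Within the Sets the knockdown library held 58.0%, 23.0%, 6.79% and 27.5% of the C1s of its control. Set 1 had the smallest difference and Set 3 the largest, which is also the order of the Sets for Nfat5. Without both libraries of Set 3 the log2 fold change of C1s was -1.59, and with any 1 library left out it ran from -2.45 to -1.63. C1s was lower in all of these fits.

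C1r (ENSRNOG00000011796), the neighbouring protein-coding gene of C1s in the RefSeq annotation, measured 17840, 22759, 21942 and 15588 normalized counts in control libraries 1 to 4. In knockdown libraries 1 to 4 it measured 18680, 13991, 8182 and 15635. The groups overlapped, and the difference came from Sets 2 and 3, at 61.5% and 37.3% of control, while Sets 1 and 4 held 105% and 100.3%. Its log2 fold change was -0.51 (SE 0.277, limma adjusted p 0.607). The ratio of C1s to C1r counts, which no scaling of a library can move, was 1.14, 1.54, 1.44 and 2.06 in control libraries and 0.632, 0.577, 0.262 and 0.564 in knockdown libraries. The control mean was 1.55 ± 0.381 and the knockdown mean 0.509 ± 0.167 (SD, n = 4), with no overlap between the groups. An exact permutation test of the log2 ratio, 2-sided, gave p = 0.0286, the smallest value 4 against 4 unpaired libraries allow, and 0.114 adjusted over the 4 ratios computed. For all 4 ratios the permutations ignored the Set, although the Set numbers pair the libraries. Of the other ratios, that of C1s to Serping1 was 17.0 ± 7.45 in control and 6.29 ± 4.25 after knockdown (SD, n = 4; exact permutation p = 0.0571, adjusted 0.114). The ratio of Lcn2 to C3 was 1.06 ± 0.526 and 0.693 ± 0.256 (SD, n = 4; exact permutation p = 0.314, adjusted 0.314). The ratios were chosen after the values were seen.

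**Figure D2:**
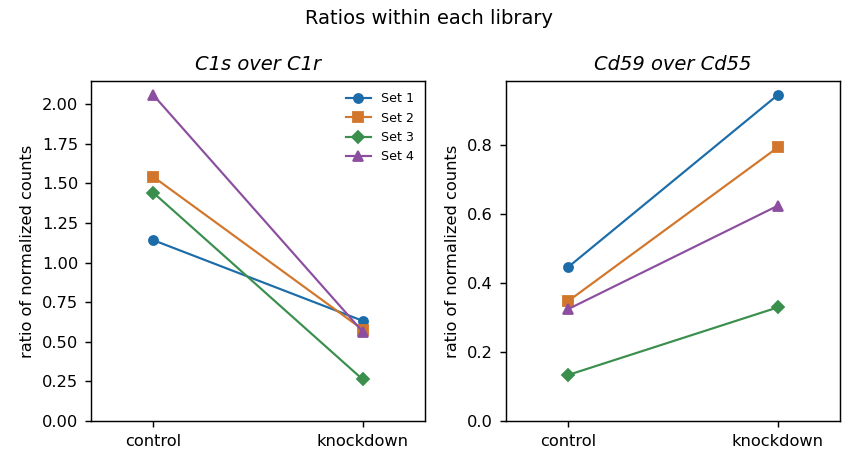
Ratio of normalized counts within each library (linear axis from 0) for C1s over C1r, left, and Cd59 over Cd55, right; lines join the control and knockdown library of a Set. The ratio of C1s to C1r is above 1.1 in all 4 control and below 0.64 in all 4 knockdown libraries, and the ratio of Cd59 to Cd55 is higher in the knockdown of every Set while the groups overlap.

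C3 (ENSRNOG00000046834), the central component, measured 24321, 81139, 54265 and 92716 normalized counts in control libraries 1 to 4 and 28703, 67519, 17476 and 85962 in knockdown libraries 1 to 4. The control libraries differed 3.81-fold among themselves, more than the groups did, and the groups overlapped. As a share of control, C3 stood at 118%, 83.2%, 32.2% and 92.7% in Sets 1 to 4. The log2 fold change was -0.44 (SE 0.603, limma adjusted p 0.898), -0.05 when Set 3 was left out and -0.03 when its knockdown library alone was. Blocking on the Set brought the SE of C3 to 0.333 and its limma adjusted p to 0.463. Its promoter window is the one above with the TonE match.

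Of the regulators, Serping1 (ENSRNOG00000007457), the inhibitor of C1r and C1s, measured 779, 2711, 1611 and 3452 normalized counts for control Sets 1 to 4, against 941, 1716, 454 and 2792 for knockdown. Its groups overlapped, its difference was largest in Set 3 (28.2% of control), and its log2 fold change was -0.63 (SE 0.622, limma adjusted p 0.825), or -0.16 without knockdown library 3. Blocking on the Set brought the SE of Serping1 to 0.312 and its limma adjusted p to 0.283. Cd55 (ENSRNOG00000003927), which takes apart the C3 convertases, measured 4125, 3645, 2977 and 2402 in control and 2620, 2096, 1914 and 2447 in knockdown libraries. It was lower in Sets 1 to 3, at 63.5%, 57.5% and 64.3% of control, and level in Set 4 at 102%. The groups overlapped through control library 4 alone. Its log2 fold change was -0.52 (SE 0.197), with a limma adjusted p of 0.467 unblocked and 0.129 blocked. Blocked DESeq2 gave 0.0610. The authors' deposited table gives 0.0649 for Cd55.

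Cd59 (ENSRNOG00000042821), the membrane inhibitor of the terminal pore, measured 1845, 1270, 398 and 781 normalized counts for control Sets 1 to 4, against 2478, 1663, 630 and 1528 for knockdown. The groups overlapped because the Sets differed 4.64-fold in control, but the knockdown library was the higher of its Set each time, at 134%, 131%, 158% and 196% of control. Being higher in all 4 Sets holds for 17.0% of genes tested. The log2 fold change of Cd59 was 0.61, and blocking on the Set took its SE from 0.537 to 0.132. Limma gave an adjusted p of 0.790 unblocked and 0.0822 blocked, while blocked edgeR gave 0.0885 and blocked DESeq2 0.00840. The authors' deposited table lists Cd59 as higher, at log2 0.57, adjusted p 0.00954, and it is the single member called there, against 4.09% of genes called higher and 5.22% called lower.

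Cd55 and Cd59, both anchored in the cell membrane, thus lay on opposite sides of 0. The ratio of Cd59 to Cd55 counts was 0.447, 0.349, 0.134 and 0.325 in control and 0.946, 0.794, 0.329 and 0.624 in knockdown libraries 1 to 4. It was higher in the knockdown library of every Set, by log2 differences of at least 0.94. An exact permutation test without the Set, 2-sided, gave p = 0.0857 and 0.114 adjusted over the 4 ratios.

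Among the acute phase members, Lcn2 (ENSRNOG00000013973) measured 21517, 85496, 27909 and 164020 normalized counts for control Sets 1 to 4, against 23745, 51449, 5505 and 74542 for knockdown. Control library 4 held 7.62 times the value of control library 1, and the groups overlapped. As a share of control, Lcn2 stood at 110%, 60.2%, 19.7% and 45.4% in Sets 1 to 4, lower in 3 of the 4. The log2 fold change was -1.02 (SE 0.914), and it was -0.26 without knockdown library 3 and -0.48 without control library 4. Limma gave an adjusted p of 0.796 unblocked and 0.186 blocked, and blocked DESeq2 gave 0.0419. In the authors' deposited table it is 0.0581, with a log2 fold change of -0.75.

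Ptx3 (ENSRNOG00000012280) was counted at 379, 187, 624 and 659 normalized counts for control Sets 1 to 4, against 492, 405, 311 and 140 for knockdown. It was higher in the knockdown of Sets 1 and 2 (130% and 216% of control) and lower in that of Sets 3 and 4 (49.9% and 21.3%). The log2 fold change was -0.44 (SE 0.495, limma adjusted p 0.859), and without both libraries of Set 4 it turned to 0.16. Its log2 values correlated at -0.08 with those of Lcn2 over the 8 libraries.

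With the Set as a block DESeq2 called 3 of the 8 members, C1s and Lcn2 lower and Cd59 higher, against 5.45% of genes called lower and 4.31% called higher. With the block limma and edgeR each called 0 members at an adjusted p under 0.05, and each counted 4 (C1s, Cd55, Cd59 and Lcn2) at an unadjusted p under 0.05, where limma counted 23.1% of genes tested. C1s was the 1 member lower in all 4 Sets, a pattern that 16.2% of genes tested share. It was also the 1 member without overlap of its groups, and 0 members lay wholly above control, against 2.9% of genes.

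**Figure D3:**
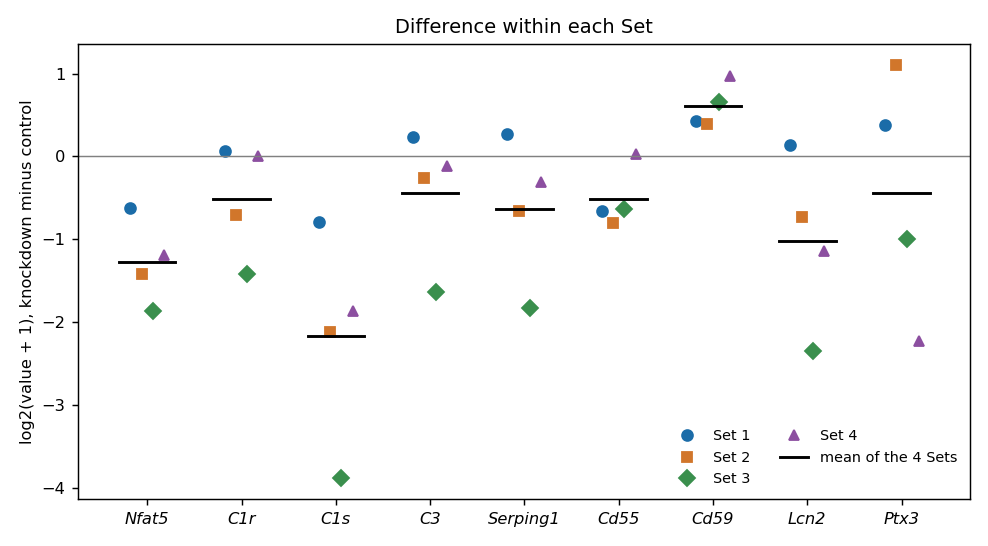
Difference of log2(value + 1) between the knockdown and the control library of each Set for Nfat5 and the 8 members; symbols are the 4 Sets and the black line is their mean, and no error bar is drawn. Set 3 (green) lies lowest for C1r, C1s, C3, Serping1 and Lcn2, and the points of Cd59 are all above 0.

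The Sets differed among themselves in a pattern that members shared. Set 3 held the lowest knockdown value relative to control for 5 of the 8 members, as it did for 34.0% of genes tested. For C3, C1s, C1r and Serping1 the Sets ran from Set 3 through Sets 2 and 4 to Set 1, the order in which Nfat5 itself was reduced, and 8.08% of genes tested have that order. Lcn2 had Sets 2 and 4 exchanged, and Cd55, Cd59 and Ptx3 had other orders. The order was looked at after the values were seen, and the 4 genes that share it vary together, so they are not 4 separate observations.

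Across the 8 libraries C3, Serping1 and Lcn2 varied together, with Pearson correlations of log2 values of 0.986 between C3 and Serping1, 0.965 between Serping1 and Lcn2 and 0.932 between C3 and Lcn2. C1s varied with C1r (0.889) and Cd55 (0.710), and less with C3 (0.554), while Cd59 and Ptx3 stayed between -0.32 and 0.26 with every other member. These correlations describe 8 libraries that share 4 Sets. Among 9444 genes with a mean of at least 100 normalized counts, those most like C3 were Orm1 (0.992), the acute phase glycoprotein orosomucoid, Pros1 (0.987), the anticoagulant protein S, and Serping1. Those most like Lcn2 were Sulf1 (0.976), Slc38a10 (0.972) and Tor4a (0.969), and those most like Ptx3 were Taf6l (0.868), Qsox2 (0.865) and Pdcl (0.845). Those most like C1s, added after its values were seen, were Arrb1 (0.981), Il3ra (0.974) and Tmem127 (0.971). All of these are the highest values of a search over 9444 genes with 8 libraries. Whether they exceed what such a search gives by chance was not tested.

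Of 40 other complement genes looked up, 21 are listed and 18 were tested, with 14 below 0, 4 above and a median log2 fold change of -0.25; over all genes tested 6181 lay below 0 and 6202 above, with a median of 0.00. Limma called 0 of the 18. Of the 17 with an adjusted p in the authors' deposited table, C2 and C4b are called lower, where that table calls 5.22% of all genes lower. C2, the substrate of C1s in the classical convertase, measured 801, 4285, 7359 and 14276 normalized counts for control Sets 1 to 4, against 823, 2089, 1881 and 4472 for knockdown. It was level in Set 1 and lower in the other Sets, at log2 -1.16 (SE 0.853 without the Set, 0.315 with it as a block). Blocked limma gave C2 an adjusted p of 0.110 and blocked DESeq2 0.00584. The authors' deposited table puts C2 at log2 -0.99, adjusted p 0.00384. The other substrate is C4. C4a measured 91.6 ± 53.0 and 43.5 ± 32.5 and C4b 64.4 ± 43.1 and 21.0 ± 15.7 in control and knockdown cells (SD, n = 4), and reads cannot be placed firmly between these near-identical copies.

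Clu, a fluid-phase inhibitor of the terminal pore, measured 15558 ± 4394 and 16802 ± 9354 (log2 fold change -0.01). Cfd, which cuts factor B, measured 19.1 ± 11.1 and 15.6 ± 16.5, Cd46 19.5 ± 8.74 and 15.4 ± 5.17, and Cfi, which the filter on low reads left out, 4.62 ± 2.19 and 7.97 ± 4.06 (SD, n = 4).

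Of 27 other acute phase genes looked up, 15 are listed and 13 were tested, with 12 below 0 and a median log2 fold change of -1.03, which was 0.10 in Set 1, -0.90 in Set 2, -2.07 in Set 3 and -0.54 in Set 4. Limma called 0 of them. The authors' deposited table calls 5 lower and 1 higher, where 5.22% of all genes are called lower and 4.09% higher. Hp, the haemoglobin scavenger haptoglobin, measured 9348 ± 7574 against 2602 ± 922 after knockdown (SD, n = 4), at log2 -1.10, adjusted p 0.00322 in the authors' deposited table. Hpx, the haem-binding hemopexin, measured 187 ± 146 and 48.4 ± 12.2, the protease inhibitor gene Serpina3n, of a multigene family whose reads may be shared, 311 ± 332 and 120 ± 93.2, and Lbp, which presents bacterial lipopolysaccharide, 2307 ± 1938 and 956 ± 821. In Set 1 Hp, Hpx and Lbp were above control, at 118%, 137% and 111%, while Serpina3n was at 81.7%. In Sets 2 to 4 all of these genes were below control. The zinc importer gene Slc39a14 measured 10031 ± 5251 and 3856 ± 1773 and was lower in all 4 Sets. Hmox1, which degrades haem, is the gene called higher in the authors' deposited table (log2 0.73), at 1910 ± 1447 and 2950 ± 951 (SD, n = 4).

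The cytokines and factors known to act upstream of the members were mixed. Of 27 looked up, 26 are listed and 24 were tested, with 18 below 0, 6 above and a median log2 fold change of -0.18. Limma called 0 of the 24. Of the 25 with an adjusted p in the authors' deposited table, 7 are called lower and 1 higher. Among all genes that table calls 5.22% lower and 4.09% higher. Il6, the main inducer of acute phase genes in liver, measured 946, 636, 1405 and 1080 normalized counts for control Sets 1 to 4, against 469, 160, 69.6 and 227 for knockdown, with no overlap. DESeq2 with the block gave Il6 an adjusted p of 1.47e-05. Its receptor gene Il6r was the gene called higher in the authors' deposited table (log2 fold change 0.72), at 120 ± 33.9 and 219.9 ± 80.2. The related cytokine gene Lif (log2 -1.72 in that table) had a control mean carried by a single library at 3006. Lif was lower in all 4 Sets, at 39.0%, 40.7%, 12.5% and 8.46% of control in Sets 1 to 4. DESeq2 with the block gave Lif an adjusted p of 1.77e-06.

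Of the transcription factors, Klf4 measured 1180.4 ± 469.6 and 502 ± 150.0 and Nfkb1, the p50 subunit of NF-kB, 4252 ± 1965 and 2347 ± 974 normalized counts (SD, n = 4). The control mean of Nfkb1 was raised by library 4 at 7200, against 3291, 3257 and 3259 in control libraries 1 to 3. In Set 1 Nfkb1 was level, at 98.5% of control. Both genes are called lower in the authors' deposited table. Nfkbia (log2 -0.66) and Socs3 (-0.85), inhibitors that NF-kB and STAT3 switch on, are also called lower there. Nfkbiz, the co-factor that Lcn2 transcription needs in mouse cells, measured 2511, 6184, 3553 and 3559 in control and 2514, 3230, 531 and 2768 in knockdown libraries 1 to 4. Its share of control was lowest in Set 3 (14.9%), as for Lcn2 and for 34.0% of genes tested, and was 77.8% in Set 4. A link between the 2 genes was not tested. The limma adjusted p of Nfkbiz was 0.621. Stat3 had a log2 fold change of 0.21. Cebpd, at -0.06 on average, held 9.69% of control in Set 3 and 455% in Set 4, so its mean hides Sets that went opposite ways. Il1b, below the filter on low reads, measured 11.4, 3.99, 8.63 and 113 in control and 3.31, 0, 1.93 and 0 in knockdown libraries. Mmp9, the gelatinase that lipocalin 2 binds, is called lower in the authors' deposited table (log2 -0.92), with a control mean carried by library 4 at 11337.

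**Figure D4:**
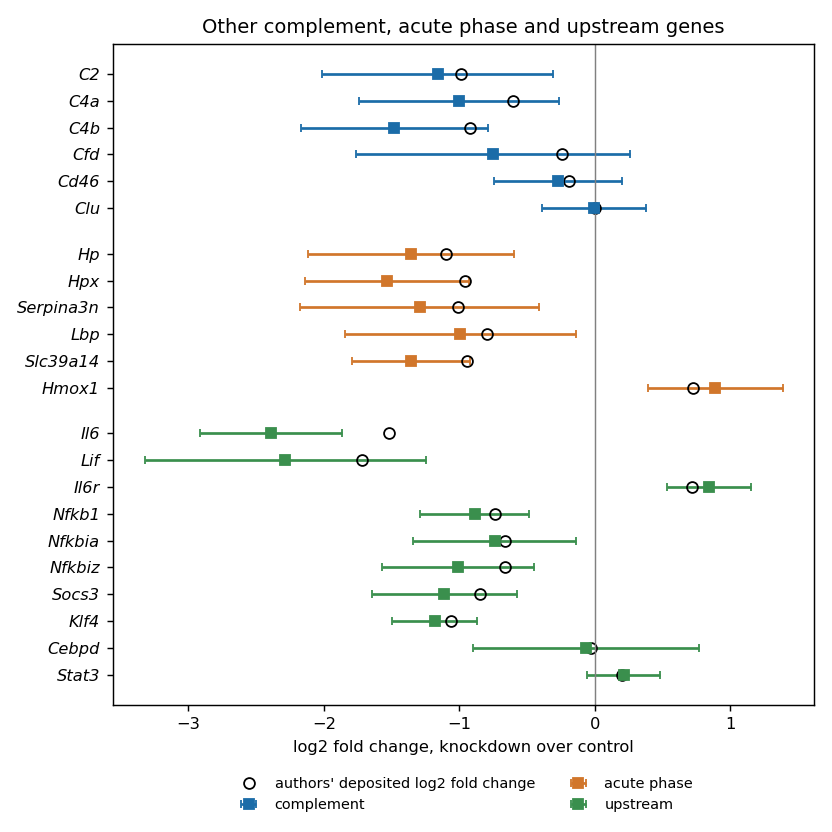
Log2 fold change of knockdown over control for other complement, acute phase and upstream genes named in the text. Squares with bars are limma values on the log2(value + 1) scale with their standard errors, without the Set as a block. Open circles are the authors' deposited values. Most squares lie left of 0, Hmox1, Il6r and Stat3 lie right of it, and the circles lie nearer to 0 than the squares for most genes. Many of the genes drawn were named for a deposited adjusted p under 0.05, so they do not stand for their whole lists.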

How the data were processed

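Per the submitters' processing notes, Novoalign 2.08.01, DESeq2 1.10.1 and genome build rn5 were named; no source used here names the annotation, read counter or strand setting, so reads shared between paralogs or overlapping genes could not be checked. The deposited signal values are read counts scaled by the authors, 1 factor a library: 100% of values are whole multiples of what 1 read is worth in that library, within 0.001 reads. The deposited log2 fold changes and the deposited adjusted p-values are the authors' own, per the file headers, and 1362 genes have no adjusted p. Every listed gene has at least 13 reads in all.

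The main test was limma 3.58.1 (mean-variance trend) on log2(value + 1), group as the only term, 2-sided, Benjamini-Hochberg adjusted over the 12383 genes kept by edgeR's filterByExpr, with 0.05 as threshold; all 8 members passed that filter. Fold changes on this scale understate changes of genes with few reads. edgeR 4.0.16 (quasi-likelihood) and DESeq2 1.42.0 were run on the recovered reads as alternatives, in R 4.3.3. Set numbers pair the libraries: deviations from the group means of same-numbered libraries correlated at 0.805, 0.749, 0.681 and 0.699. The Set was therefore also used as a block. Levels were not compared between genes per length, since no transcript lengths were used.

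The members and lists were chosen with earlier results of these data known. Named were all members and Nfat5, a set of complement and upstream genes chosen by role, up to 8 genes per list with a deposited adjusted p under 0.05, and for C3, Lcn2 and Ptx3 the 3 genes of most similar pattern. Ratios, motifs, the order of the Sets and the genes most like C1s were chosen after the values were seen. Promoters came from RefSeq (GRCr8), and figures from matplotlib 3.10.9 in Python 3.11.15. The result of 1 named gene of the complement list is not reported here.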

Additional observations from a re-analysis of the deposited data

Results flagged for a closer look

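No member had a library that stood apart in its group by Dixon's test at 95%. Among the 33 members and other genes checked, in 66 groups of 4 libraries, 7 groups had such a library. The test used counts not taken to logs, and the groups share the same libraries, so no chance rate is given. In control these were the highest libraries of Il1b (113 normalized counts), Lif (3006), Nfkb1 (7200), Socs3 (1225) and Mmp9 (11337), all control library 4. In knockdown they were the highest libraries of Nfkbia (3718) and Klf4 (727), both knockdown library 4.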

How the results depend on the processing

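Over 24 alternatives each for the 8 members and Nfat5, 210 of 216 log2 fold changes kept their direction and their side of the threshold, 5 crossed it and 1 turned. The turn was Ptx3, at 0.16 without both libraries of Set 4 (Set as a replicate block). All 5 crossings were calls by DESeq2: C1s without the Set, and C1s, Cd59, Lcn2 and Nfat5 with it. DESeq2 counted 1 member without the replicate block and 3 with it, where limma counted 0; the block changed no other member's call. Over all genes limma called 0 higher and 1 lower; DESeq2 called 68 higher and 95 lower without the block and 518 higher and 656 lower with it, and limma-voom with the block 7 and 7. With the block limma and edgeR called 0 genes (2856 and 2763 at an unadjusted p under 0.05), and limma called 0 lower without any 1 library or any 1 Set. The cause was not tested.

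With 1 library left out, C3 ran from -0.84 to -0.03, Serping1 from -1.05 to -0.16, Lcn2 from -1.51 to -0.26, Ptx3 from -0.81 to -0.06, Cd59 from 0.21 to 1.00, C1s from -2.45 to -1.63, C1r from -0.67 to -0.27 and Cd55 from -0.66 to -0.40. Without both libraries of Set 3, C1r was at -0.21 and Serping1 at -0.23. Pseudocounts of 0.5 and 8, filters and scalings kept every member's direction.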
